A study of Mus musculus with 9 samples.

Results

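In livers that lacked both Mttp and Fabp1, most genes of the endoplasmic reticulum (ER) folding machinery read above control, and few of them passed a test adjusted over the whole transcriptome. The 35 genes described here are 12 ER chaperones and co-chaperones, 5 disulfide and proline isomerases, 9 genes of ER-associated degradation, 6 stress sensors and their effectors, and 3 genes of translocation and export. They were chosen as a list of known ER genes, matched by Ensembl identifier to mouse symbols, out of 41388 genes in each deposited table. All 35 were found, and all 35 passed the low-count filter that left 14741 genes for testing.

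The 9 libraries came from whole livers of male C57BL/6J mice, and each was a pool of RNA from 3 mice of one genotype. Fabp1 Mttp DKO livers (DKO) combined a liver-specific deletion of Mttp with a germline deletion of Fabp1. MttpLKO livers had the liver-specific Mttp deletion alone. Control livers were Mttp f/f, carrying the floxed allele without the liver deletion. Mttp encodes the microsomal triglyceride transfer protein, which loads lipid onto apolipoprotein B in the ER lumen, and Fabp1 encodes the liver fatty acid binding protein. There were 3 pools per genotype, or 27 mice where none entered more than one pool. Every mouse, controls included, received the liver carcinogen diethylnitrosamine at 25 mg/kg into the peritoneum at 14 days of age, ate standard chow and gave liver at 6 months. The Cre driver is not named in the labels, and they do not say whether the pools contained tumour tissue. No group without the carcinogen and none with Fabp1 deletion alone was analysed here.

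Proteins that enter the ER are folded there by chaperones, cross-linked by disulfide isomerases, and passed either to the Golgi or, if they fail to fold, back to the cytosol for destruction. When unfolded protein accumulates, the sensors IRE1 (gene Ern1), PERK (Eif2ak3) and ATF6 set off the unfolded protein response: ATF6 is cut to release a transcription factor, IRE1 splices the Xbp1 mRNA, and PERK slows translation while favouring ATF4. The hepatocyte, which secretes most plasma proteins and builds lipoproteins, is rich in this machinery. Gene totals do not show Xbp1 splicing, ATF6 cleavage or the phosphorylation of either kinase.

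Total counts were 23268389 to 23429588 in DKO, 26362408 to 27918197 in MttpLKO and 24995426 to 27080442 in control libraries. Levels below are CPM, counts scaled to library size, after TMM scaling, in replicate order, unless they are named as levels per length, and differences are log2 fold changes from edgeR's quasi-likelihood fit ± SE. A gene was called at an adjusted p under 0.05. Mttp stood at 5.79, 3.24 and 4.53 CPM in DKO and 9.78, 6.14 and 6.26 CPM in MttpLKO, against 180.8, 79.9 and 69.4 CPM in control. Fabp1 stood at 50.3, 67.5 and 78.0 CPM in DKO, against 3379, 3996 and 4984 CPM in MttpLKO and 6845, 6060 and 6238 CPM in control, so both deletions matched the labels. MttpLKO replicate 3 stood apart, with a summed level of 10 B and plasma cell markers of 645 CPM, against 29.5 and 50.8 CPM in the other MttpLKO pools. The whole-liver label fitted the hepatocyte markers, 8 genes that summed to between 64560 and 105100 CPM in every library.

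Many ER stress genes carry a known promoter element, and the windows of the genes that lead the results below are shown here so that each can be set beside its values. The ER stress response element (ERSE) is the letters CCAAT, then any 9 bases, then CCACG, and its shorter relative ERSE-II is ATTGG, any 1 base, then CCACG. Both were first described in promoters of genes of this kind, so finding them here is background and not independent evidence. RefSeq (GRCm38.p6) gave a promoter window, from 250 bases before to 50 after a gene's start, for 29 of the 35 genes, and both strands were searched. Hyou1, Hspa13, Manf, Derl1, Atf6 and Sec61a1 had no entry. An exact ERSE was present in 9 of the 29 genes (31%), against 37 of 27025 genes with a window (0.137%). The 10 matches lay between 26 and 212 bases upstream of the start, 6 on the gene's strand and 4 on the other. They are written 5′ to 3′ along the strand that carries the match, with the CCAAT and CCACG blocks in capitals and the 9-base spacer in lower case.
Derl3: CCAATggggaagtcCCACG
Hspa5: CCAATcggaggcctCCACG
Hsp90b1 (distal): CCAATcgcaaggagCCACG
Hsp90b1 (proximal): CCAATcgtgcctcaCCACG
Calr: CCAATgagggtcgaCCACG
Canx: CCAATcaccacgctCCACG
Creld2: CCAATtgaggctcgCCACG
Dnajc3: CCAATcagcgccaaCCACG
Pdia6: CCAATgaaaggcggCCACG
Syvn1: CCAATcggcggtagCCACG
An exact ERSE-II was found in 2 of the 29 genes (6.9%), against 0.0444% of genes with a window. That of Dnajb11 began 7 bases downstream of the start and that of Herpud1 ended 42 bases upstream of it. The fixed letters are in capitals.
Dnajb11: ATTGGcCCACG
Herpud1: ATTGGgCCACG
The letters TGACGTGG of the UPRE were present only in Sec24d, or 3.45% of the 29 genes against 0.714% of all genes with a window, and the ATF4 element TTGCATCA only in Herpud1, or 3.45% against 1.03%. A match describes these letters and does not show that a factor was bound.

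The 250 bases upstream of Derl3, Hspa5 and Hsp90b1 are printed because Derl3 had the largest fold change of the 35 genes and the other pair are the classical luminal chaperones. They run 5′ to 3′ along the gene's strand, and capitals mark the ERSE blocks; a match on the other strand reads CGTGG before ATTGG. Upstream here is by the RefSeq start. Those of Derl3 (chr10:75893148-75893397, plus strand) and Hspa5 (chr2:34771840-34772089, plus strand) hold a single match each. That of Hsp90b1 (chr10:86705445-86705694, minus strand) holds a pair in opposite directions. The deposited coordinates begin Hspa5 at 34771970, so its printed ERSE lies inside the gene as counted. They place the start of Hsp90b1 at 86705509, inside its printed stretch but downstream of both matches.
Derl3: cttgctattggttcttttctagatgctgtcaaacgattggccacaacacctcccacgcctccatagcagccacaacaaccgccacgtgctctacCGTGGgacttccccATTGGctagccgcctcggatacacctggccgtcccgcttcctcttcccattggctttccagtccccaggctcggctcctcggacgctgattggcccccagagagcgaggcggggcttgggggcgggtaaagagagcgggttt
Hspa5: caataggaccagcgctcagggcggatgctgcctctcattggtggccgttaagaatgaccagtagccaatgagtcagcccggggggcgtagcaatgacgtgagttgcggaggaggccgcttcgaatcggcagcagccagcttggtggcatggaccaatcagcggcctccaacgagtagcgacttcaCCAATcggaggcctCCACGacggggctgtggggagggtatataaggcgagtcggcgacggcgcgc
Hsp90b1: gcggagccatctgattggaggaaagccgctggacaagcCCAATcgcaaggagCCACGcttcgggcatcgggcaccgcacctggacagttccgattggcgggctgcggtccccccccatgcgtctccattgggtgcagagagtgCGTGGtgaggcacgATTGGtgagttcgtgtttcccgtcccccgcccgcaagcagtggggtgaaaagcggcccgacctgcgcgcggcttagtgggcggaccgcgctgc

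**Figure D1:**
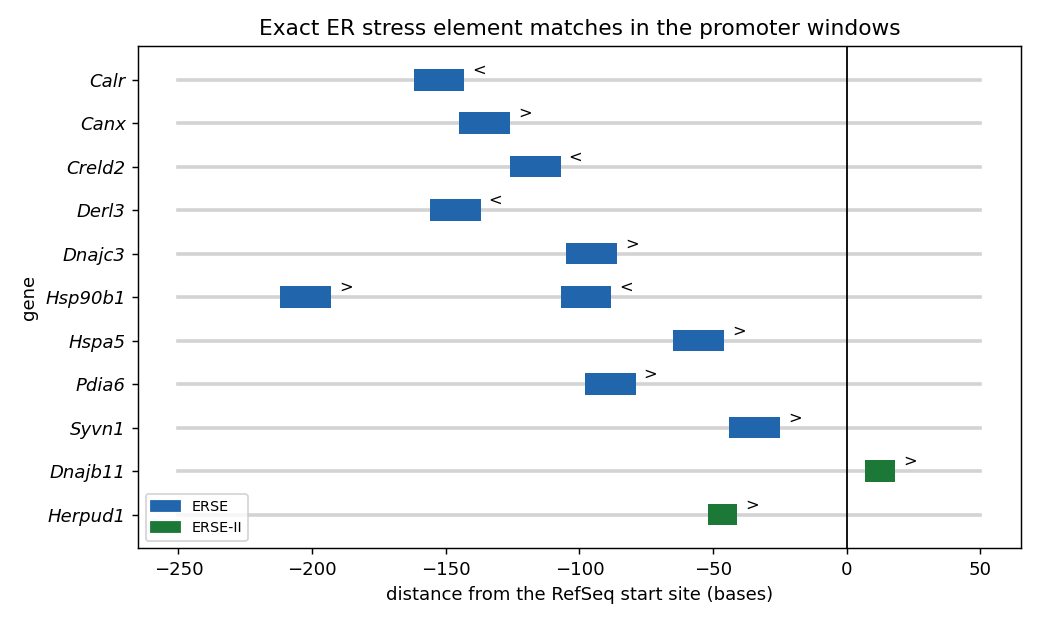
Position of each exact ERSE (blue) and ERSE-II (green) match along the RefSeq promoter window of 11 genes, in bases from the start site, with an arrow for the strand of the match. The ERSE matches lie 26 to 212 bases upstream, Hsp90b1 has a pair in opposite directions, and the ERSE-II of Dnajb11 lies just downstream of the start.

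The map of element positions shows no shared distance from the start site.

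The chaperones were the most uniform group in DKO against control. All 12 had a fitted log2 fold change above 0, with a median of 0.66, against a median of -0.0019 over the 14741 genes tested, 49.6% of which were fitted above 0. In 10 of the 12, every DKO library exceeded every control library, an arrangement found in 8.95% of all genes. Dnajb11 alone was called, where 0.332% of all genes were called in either direction. At an unadjusted p under 0.05, 11 of the 12 were higher, against 5.91% of all genes. DESeq2 called 6 of the 12, against 1.2% of all genes called higher, and limma-voom called 0, against 0.237% of all genes. In bulk liver, a change in the number of cells of a type and a change in RNA per cell cannot be told apart.

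Dnajb11 (chr16:22857845-22879634) encodes ERdj3, a soluble co-chaperone that brings unfolded clients to BiP. Its level was 115.6, 91.6 and 116.0 CPM in DKO, 76.2, 78.0 and 88.7 CPM in MttpLKO and 73.9, 63.9 and 62.5 CPM in control. Every DKO library lay above every library of both other genotypes, and every MttpLKO library above every control. It rose 1.61-fold in DKO over control (log2 0.69 ± 0.12, adjusted p = 0.0499 by edgeR), which is at the edge of the threshold. The call was lost in 12 of 17 alternative settings, with log2 values between 0.63 and 0.81 throughout. Among single libraries left out, it was kept without MttpLKO replicate 3 (edgeR adjusted p = 0.0332) and without DKO replicate 2 (0.0231) and lost without any of the other 7 (0.0517 to 0.287). Its window holds the ERSE-II shown above.

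Hspa5 encodes BiP, the Hsp70 chaperone of the ER lumen that also holds the sensors inactive. It stood at 732, 473 and 588 CPM in DKO, 467, 485 and 615 CPM in MttpLKO and 418, 308 and 305 CPM in control. All DKO and all MttpLKO libraries were above all controls, and DKO and MttpLKO overlapped. The mean was 598 ± 130 CPM in DKO, 522 ± 80.6 CPM in MttpLKO and 344 ± 64.5 CPM in control (SD, n = 3 each). DKO against control gave a log2 fold change of 0.80 ± 0.19, 1.74-fold, which missed the threshold (edgeR adjusted p = 0.138). DESeq2 gave 0.80 with an adjusted p of 0.00475, and edgeR without the low-count filter gave 0.80 with 0.0176.

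Hsp90b1 encodes GRP94, the ER member of the Hsp90 family. Its level was 691, 451 and 609 CPM in DKO, 438, 405 and 480 CPM in MttpLKO and 395, 368 and 373 CPM in control. Both mutant genotypes lay wholly above control, with DKO replicate 2 inside the MttpLKO range. The log2 fold change in DKO over control was 0.62 ± 0.15 (edgeR adjusted p = 0.149). The gene 1810014B01Rik, on the opposite strand, shares 37.3% of its length, with 232 counts in all libraries against 106646 for Hsp90b1.

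Sdf2l1, which keeps ERdj3 and its clients soluble, separated DKO from both other genotypes. It had 64.6, 43.3 and 50.6 CPM in DKO, 23.2, 21.9 and 37.2 CPM in MttpLKO and 33.8, 26.6 and 22.6 CPM in control. No DKO library overlapped either other group, and MttpLKO and control overlapped. The log2 fold change was 0.93 ± 0.23 in DKO over control (edgeR adjusted p = 0.148) and 0.95 ± 0.23 in DKO over MttpLKO (edgeR adjusted p = 0.164).

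Calr encodes calreticulin, the soluble lectin chaperone of newly made glycoproteins, and was the most abundant of the 35 per length in DKO and control, at a mean of 394 RPKM in DKO, 268 RPKM in MttpLKO and 279 RPKM in control; in MttpLKO, Herpud1 was above it at 282 RPKM. In CPM it stood at 1381, 1051 and 972 in DKO, 799, 664 and 850 in MttpLKO and 866, 789 and 760 in control. DKO lay above both other genotypes without overlap, whereas MttpLKO and control overlapped. The log2 fold change was 0.50 ± 0.15 in DKO over control (edgeR adjusted p = 0.263) and 0.56 ± 0.15 in DKO over MttpLKO (edgeR adjusted p = 0.246). Canx, its membrane-bound counterpart, averaged 247 ± 57.2 CPM in DKO and 188 ± 15.6 CPM in control (SD, n = 3 each), and these overlapped.

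Dnajb9, or ERdj4, a BiP co-chaperone that represses IRE1, was the chaperone with the smallest difference. It read 22.6, 16.4 and 27.6 CPM in DKO, 23.2, 26.7 and 24.6 CPM in MttpLKO and 27.7, 16.6 and 14.5 CPM in control. The DKO and control ranges overlapped almost fully, and the log2 fold change was 0.18 ± 0.24 (edgeR adjusted p = 0.842).

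Of the remaining chaperones, Creld2, a stress-induced secreted ER protein, had the largest fitted difference, with 73.8, 39.9 and 85.9 CPM in DKO against 37.1, 19.9 and 20.9 CPM in control (log2 1.36 ± 0.37, edgeR adjusted p = 0.209). Hyou1, the exchange factor GRP170, averaged 277 ± 62.3 CPM in DKO and 145 ± 35 CPM in control (SD, n = 3 each), a log2 difference of 0.93. Manf, a secreted partner of BiP, gave 0.75, the co-chaperone Dnajc3 gave 0.63, and the Hsp70-like Hspa13, the least abundant of the 35 per length in control, gave 0.48. None of these 5 was called by edgeR, DESeq2 called Hyou1 and Dnajc3, and none overlapped between DKO and control. Manf shares 12.4% of its length with Dcaf1 on the opposite strand, so its counts are less certain.

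**Figure D2:**
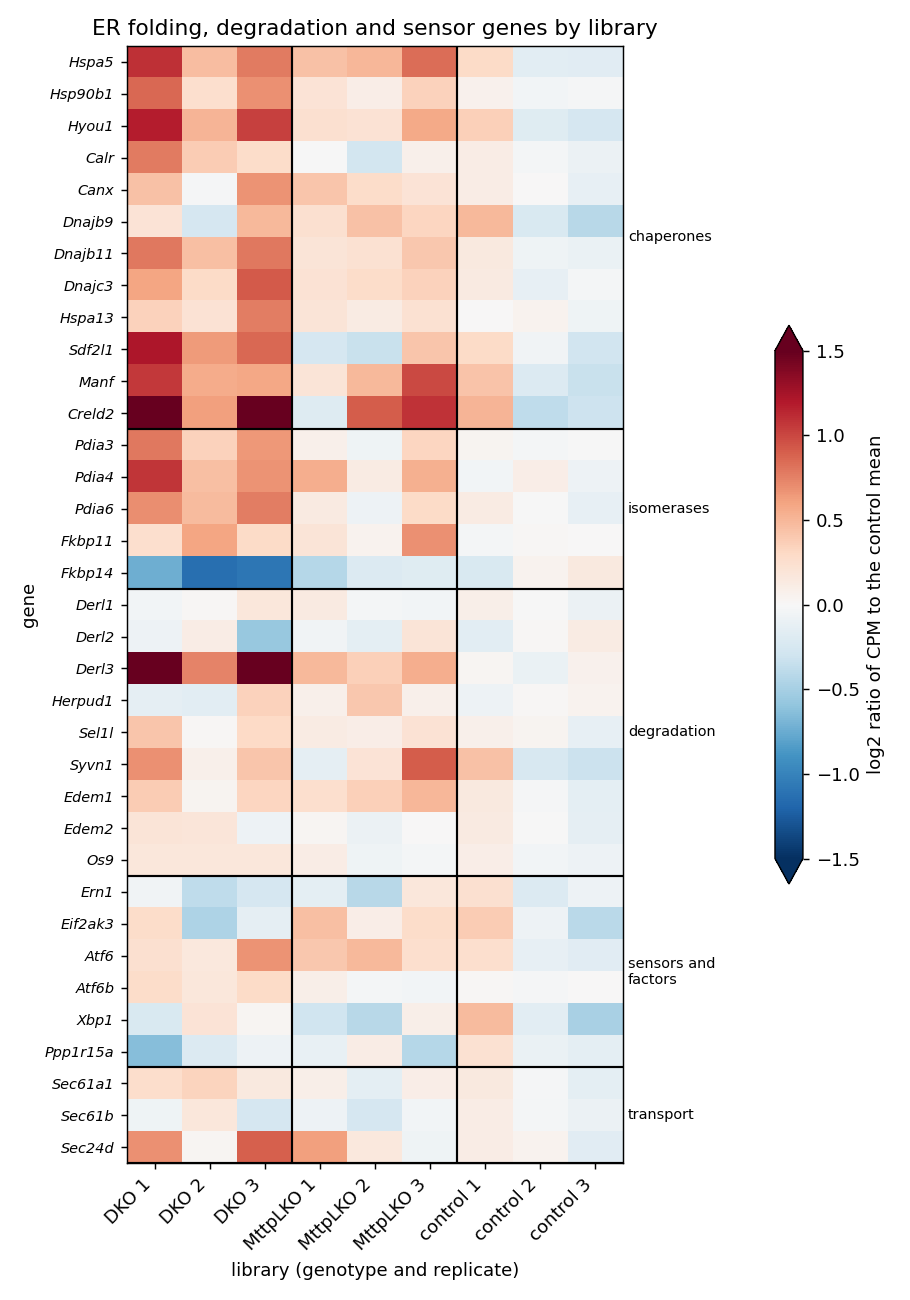
Level of each of the 35 genes in each of the 9 libraries, as the log2 ratio to that gene's control mean, with genes in rows grouped by role and libraries in columns ordered DKO, MttpLKO and control. Most chaperone and disulfide isomerase rows are highest in DKO replicates 1 and 3, with DKO replicate 2 nearer to control. Exceptions are Hspa5 and Manf, which are higher in MttpLKO replicate 3 than in DKO replicate 3, Calr, higher in DKO replicate 2 than 3, and Dnajb9. Colours saturate at the ends of the scale.

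The heat map of log2 ratios shows that libraries of one genotype were not alike. The median log2 ratio of the 12 chaperones to their control means was 0.83, 0.42 and 0.77 in DKO, 0.20, 0.25 and 0.38 in MttpLKO and 0.21, -0.09 and -0.15 in control. DKO replicate 2 was the lowest of the DKO libraries, yet above every library of the other genotypes on this measure. Control replicate 1 was the highest control, with 12 of 12 chaperones and 30 of all 35 genes above their control means. Summed over the 35 genes, the share of all counts was 0.801%, 0.599% and 0.670% in DKO, 0.534%, 0.523% and 0.632% in MttpLKO and 0.550%, 0.488% and 0.482% in control.

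Among the 5 isomerases, 4 were fitted higher in DKO than in control and 1 lower, and the 4 and the 1 each showed no overlap between the groups. Across all genes 8.95% were non-overlapping higher and 9.18% lower. Pdia4 (ERp72), a disulfide isomerase that works with BiP, had 290.5, 189 and 219 CPM in DKO, 201, 150.4 and 199.6 CPM in MttpLKO and 134, 148 and 131 CPM in control. Every library of both mutant genotypes exceeded every control, and DKO and MttpLKO overlapped. Its log2 fold change was 0.76 ± 0.17 in DKO over control (edgeR adjusted p = 0.111). Pdia6 came nearest to the threshold among the disulfide isomerases, averaging 272 ± 29.1 CPM in DKO and 173 ± 15 CPM in control (SD, n = 3 each; edgeR adjusted p = 0.0811). Pdia3, the glycoprotein-specific ERp57, averaged 465 ± 70.9 CPM in DKO and 305 ± 7.45 CPM in control (edgeR adjusted p = 0.128). Fkbp11, a proline isomerase typical of secretory cells, differed by 0.40 ± 0.17 on the log2 scale (edgeR adjusted p = 0.416).

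Fkbp14 (chr6:54577604-54597344), a proline isomerase needed for collagen folding in humans, ran the other way. It stood at 4.18, 3.07 and 3.18 CPM in DKO, 5.27, 6.25 and 6.38 CPM in MttpLKO and 6.14, 7.60 and 8.14 CPM in control. Every DKO library was below every library of both other groups. It fell by 1.07 ± 0.19 on the log2 scale in DKO against control (edgeR adjusted p = 0.0446), with 71 to 225 counts per library. The call was lost in 11 of 17 alternative settings, and the log2 value stayed between -1.22 and -0.97. Among single libraries left out, it was kept without MttpLKO replicate 1 (edgeR adjusted p = 0.0496) and without MttpLKO replicate 3 (0.0348) and lost without any of the other 7 (0.0608 to 0.226). Plekha8, on the opposite strand, shares 222 bases of Fkbp14 (5.31% of its length) and had more counts, 3681 against 1306 over the 9 libraries. Plekha8 was at 10.9, 10.9 and 12.6 CPM in DKO against 21.5, 17.3 and 16.5 CPM in control (log2 -0.69 ± 0.13, edgeR adjusted p = 0.0643), and since the strand setting of the counting is not given, reads in the shared bases cannot be assigned. Both genes lie on chromosome 6, where Fkbp14 is 16.6 Mb from the deleted Fabp1. Of the 49 genes called in DKO against control, 5 lie on that chromosome (10.2%), Fabp1 and Fkbp14 among them, against 4.98% of genes tested. In MttpLKO against control, with Fabp1 not deleted in either, it was 18 of 51 (35.29%), and in DKO against MttpLKO 10 of 59 (16.95%). The part of the position of Fkbp14 in its result was not tested.

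**Figure D3:**
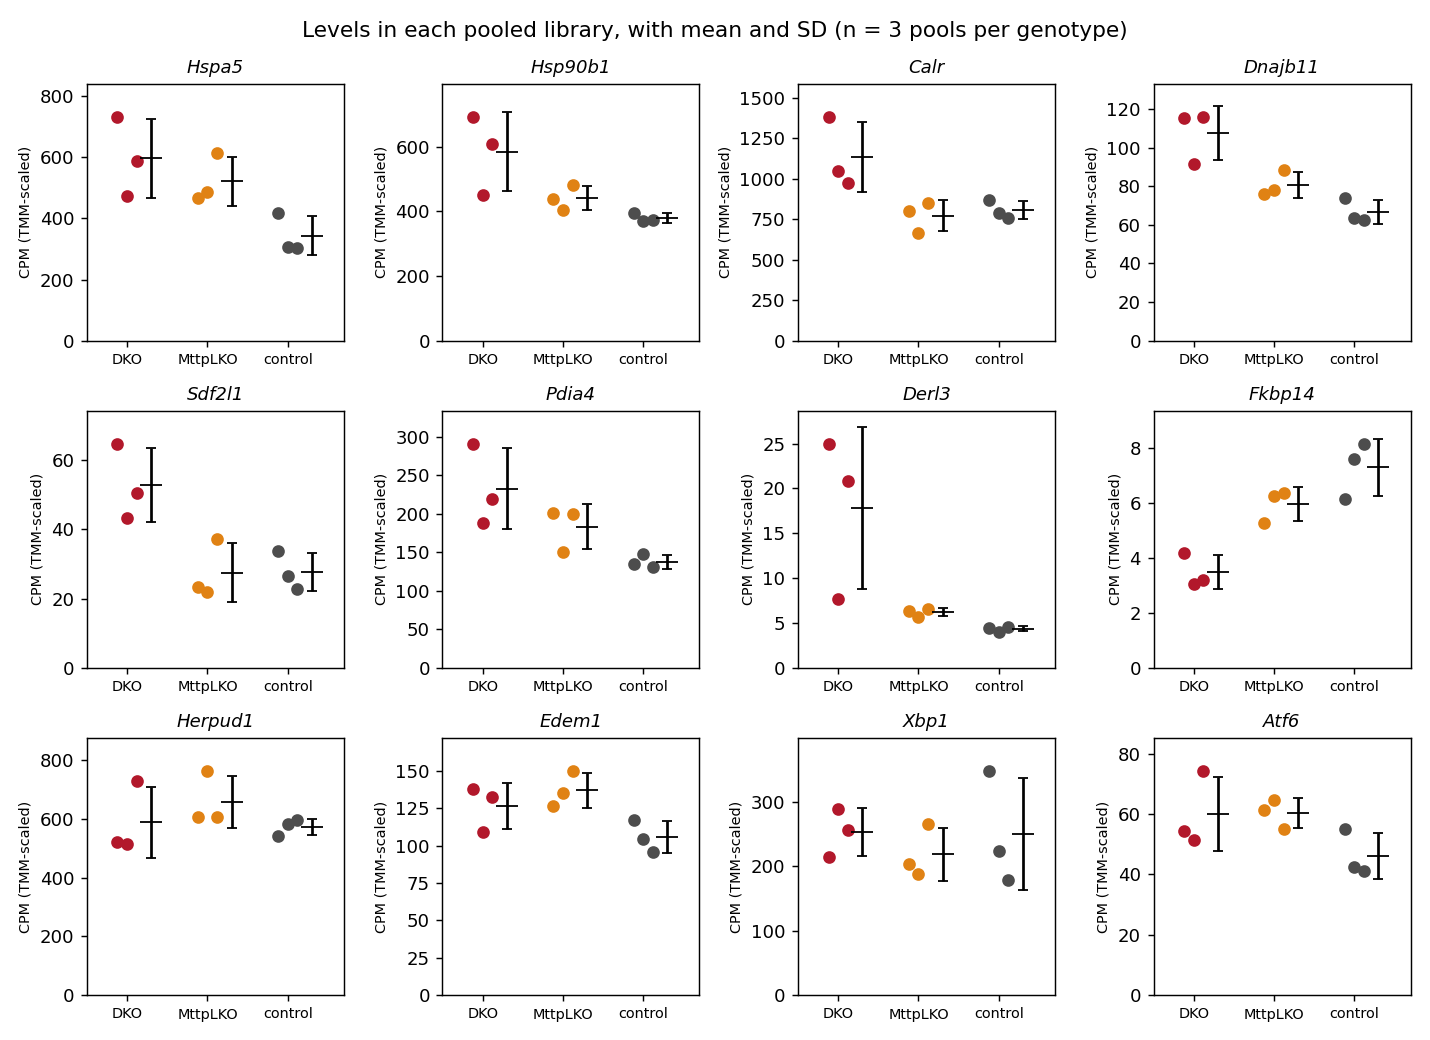
TMM-scaled CPM of 12 of the genes, one panel per gene and one point per library in replicate order, with DKO, MttpLKO and control from left to right and the mean and SD (n = 3 pools) beside the points; each axis starts at 0. Derl3, Dnajb11, Sdf2l1 and Calr have all 3 DKO points above all others, Fkbp14 has them below, and Xbp1 and Atf6 overlap between groups.

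Of the 9 degradation genes, 8 were fitted higher in DKO than in control, against 49.6% of all genes, with a median log2 fold change of 0.17, and 1 was called, against 0.332% of all genes. That gene was Derl3 (chr10:75893398-75895941), a derlin that helps extract misfolded proteins from the ER and is found mainly in secretory tissues. Its level was 24.9, 7.66 and 20.9 CPM in DKO, 6.30, 5.70 and 6.60 CPM in MttpLKO and 4.45, 4.03 and 4.59 CPM in control. The points of the level plot for Derl3 do not overlap between any pair of genotypes, but DKO replicate 2 sat close to the MttpLKO range while the other DKO libraries were well above it. It rose 4.09-fold in DKO over control (log2 2.03 ± 0.34, edgeR adjusted p = 0.0375), the largest fitted fold change of the 35. The call was lost in 9 of 17 alternative settings, with log2 values from 1.71 to 2.41. Among single libraries left out, it was kept without MttpLKO replicate 1 (edgeR adjusted p = 0.0496), MttpLKO replicate 3 (0.0298) and DKO replicate 2 (9.5e-05), and lost without any of the other 6 (0.0509 to 0.201). Per length, Derl3 remained one of the scarcer genes, at a mean of 13.3 RPKM in DKO and 3.26 RPKM in control. In a single test for any difference among the 3 genotypes, Derl3 was the 1 gene of the 35 called (edgeR adjusted p = 0.0331), against 0.678% of all genes. That test gave 12 called genes by DESeq2 (2.75% of all genes), 10 by edgeR without the low-count filter (1.32%) and 0 by limma-voom (0.577%).

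The other derlins gave values near 0. Derl1 gave a log2 fold change of 0.06 ± 0.10 in DKO over control and Derl2 gave -0.15 ± 0.17 (edgeR adjusted p = 0.897 and 0.801). Herpud1, a stress-inducible scaffold of the degradation complex and the second most abundant of the 35 per length in control, had 520, 515 and 729 CPM in DKO, 605, 762 and 607 CPM in MttpLKO and 543, 581 and 596 CPM in control. Its DKO libraries reached both below and above the controls, while every MttpLKO library was above them (DKO over control log2 0.04 ± 0.16, edgeR adjusted p = 0.959).

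Edem1, which marks misfolded glycoproteins by trimming mannose, had 138, 109 and 133 CPM in DKO, 126, 135 and 149.6 CPM in MttpLKO and 117, 104 and 95.7 CPM in control. MttpLKO lay wholly above control and DKO overlapped it (DKO over control log2 0.26 ± 0.12, edgeR adjusted p = 0.476). Os9, a lectin of the same pathway, averaged 399 ± 1.53 CPM in DKO, 357 ± 22.5 CPM in MttpLKO and 355 ± 23.2 CPM in control (SD, n = 3 each), and DKO did not overlap the others (log2 0.17 ± 0.10 over control, edgeR adjusted p = 0.589). Syvn1 (the ubiquitin ligase HRD1), its partner Sel1l and Edem2 gave 0.41, 0.26 and 0.11, with overlap between DKO and control.

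The 6 sensors and effectors showed no common direction, 3 fitted higher and 3 lower in DKO than in control, with a median log2 fold change of -0.03. Called genes numbered 0 by edgeR, DESeq2 and limma-voom, where the shares of all genes called were 0.332%, 1.73% and 0.237% in that order, so a count of 0 among 6 genes is near the background. At an unadjusted p under 0.05, 2 were higher, against 5.91% of all genes. Ern1 (IRE1) stood at 58.1, 46.2 and 50.6 CPM in DKO, 54.6, 45.2 and 68.0 CPM in MttpLKO and 71.3, 52.4 and 57.1 CPM in control. The groups overlapped (DKO over control log2 -0.22 ± 0.16, edgeR adjusted p = 0.675).

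Eif2ak3 (PERK) read 13.6, 7.92 and 10.1 CPM in DKO, 15.4, 11.9 and 13.5 CPM in MttpLKO and 14.6, 10.5 and 8.25 CPM in control. These ranges overlapped too (DKO over control log2 -0.07 ± 0.23, edgeR adjusted p = 0.941). Of the 35 genes it lies nearest to Fabp1, 0.295 Mb away on chromosome 6.

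Atf6 stood at 54.6, 51.5 and 74.2 CPM in DKO, 61.3, 64.8 and 55.0 CPM in MttpLKO and 55.1, 42.4 and 41.1 CPM in control. Its highest control library lay inside the DKO range (DKO over control log2 0.38 ± 0.16, edgeR adjusted p = 0.405). Atf6b, its less active relative, was the sensor-group gene without overlap, at 29.9 ± 1.25 CPM in DKO, 25.3 ± 1.29 CPM in MttpLKO and 25.2 ± 0.263 CPM in control (SD, n = 3 each; DKO over control log2 0.25, edgeR adjusted p = 0.359).

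Xbp1, the transcription factor mRNA that IRE1 splices, had 214, 289 and 256 CPM in DKO, 203, 188 and 265 CPM in MttpLKO and 347, 224 and 179 CPM in control. Control replicate 1 was the highest of all 9 libraries and control replicate 3 the lowest, so control alone spanned the other genotypes (DKO over control log2 0.02 ± 0.23, edgeR adjusted p = 0.992). Ppp1r15a, or GADD34, which restores translation after PERK activation, had 15, 20.5 and 22.5 CPM in DKO, 22.0, 25.7 and 17.6 CPM in MttpLKO and 27.8, 22.0 and 21.3 CPM in control. DKO and control overlapped (log2 -0.29 ± 0.18, edgeR adjusted p = 0.600).

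For translocation and export, Sec61a1 and Sec61b, the pore and a small subunit of the translocon, gave log2 fold changes of 0.25 ± 0.12 and -0.04 ± 0.13 in DKO over control. Sec24d, which selects cargo for COPII vesicles, gave 0.59 ± 0.22 (edgeR adjusted p = 0.360), with overlap. None of the 3 was called by edgeR, DESeq2 or limma-voom (0.332%, 1.73% and 0.237% of all genes in that order), and 1 was higher at an unadjusted p under 0.05 (5.91% of all genes).

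**Figure D4:**
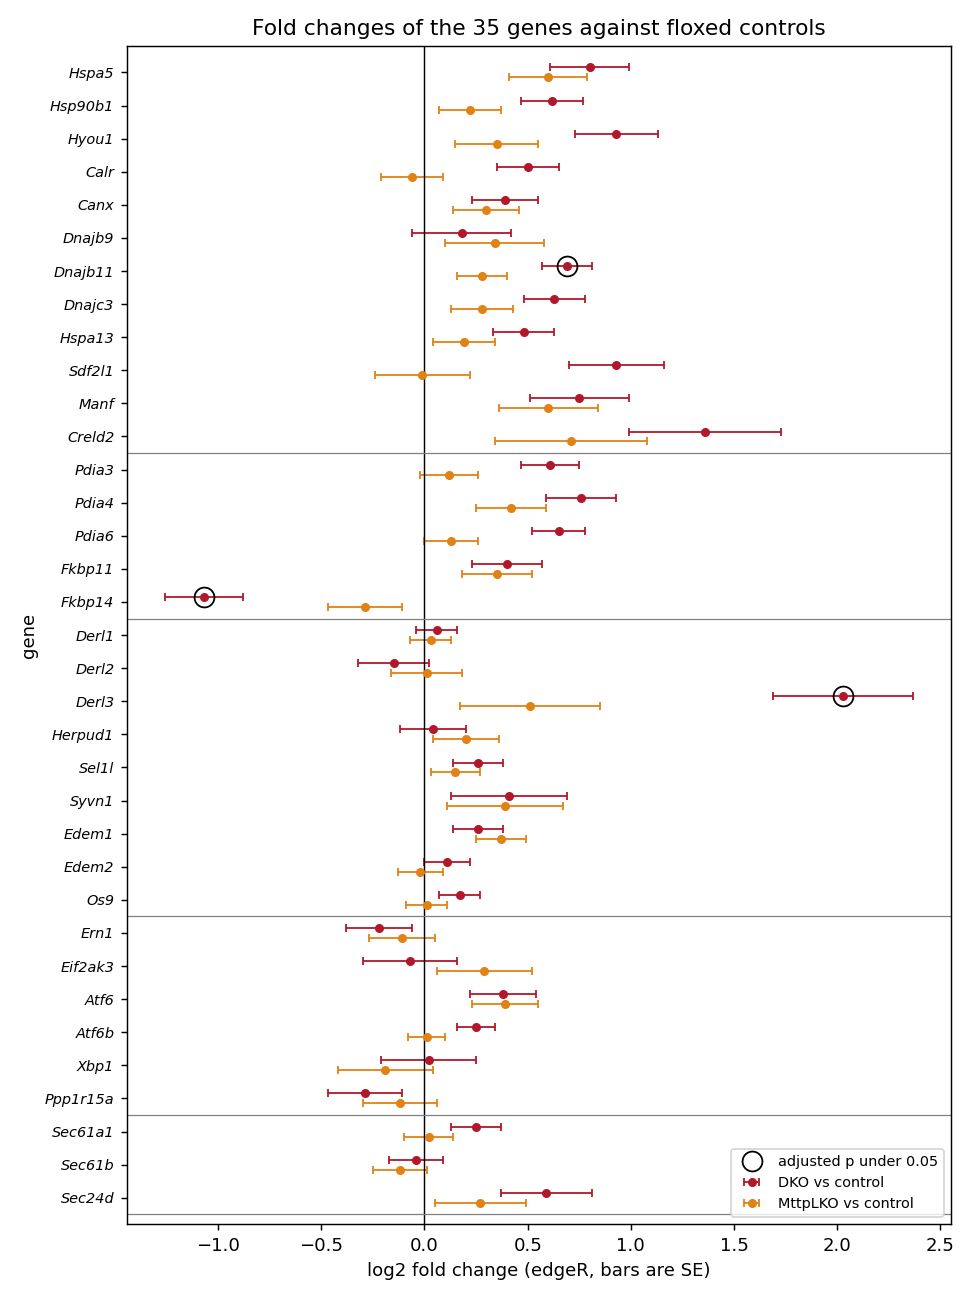
Fitted log2 fold change with its SE for each of the 35 genes, in DKO against control and in MttpLKO against control, which share the control libraries, with the genes down the page by role and a ring around the called values. In DKO against control the chaperones centre on a median of 0.66 and the sensors on -0.03, and Derl3 at 2.03 and Fkbp14 at -1.07 are the extremes.

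As the plot of fold changes shows, 29 of the 35 genes in DKO against control were fitted higher and 6 lower, with a median log2 fold change of 0.39. Derl3 and Dnajb11 rose and Fkbp14 fell, which is 8.57% of the 35 called against 0.332% of all genes. At an unadjusted p under 0.05, 19 were higher (5.91% of all genes) and 1 lower (5.33%), and 17 were higher (8.95%) and 1 lower (9.18%) with no overlap between the groups. DESeq2 called 10 higher and 1 lower, against 1.73% of all genes in either direction, and edgeR without the low-count filter called 12, against 0.789%. Beside Derl3, Dnajb11 and Fkbp14, the DESeq2 calls were Hspa5, Hsp90b1, Hyou1, Dnajc3, Sdf2l1, Pdia3, Pdia4 and Pdia6, and the unfiltered edgeR fit added Creld2 to these. The call count depended on the libraries: 0 of the 35 were called without control replicate 1, 2 or 3, without MttpLKO replicate 2, or without DKO replicate 1 or 3. Leaving out MttpLKO replicate 3 or DKO replicate 2 gave 5, and leaving out MttpLKO replicate 1 gave 2. Of all genes, 0.101% to 0.674% were called with single libraries left out. The median log2 fold change stayed between 0.29 and 0.50 over these 9 omissions.

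Mttp deletion alone gave smaller fitted values. In MttpLKO against control, 27 of the 35 genes were fitted higher and 8 lower, against 52.3% of all genes fitted above 0, and the median log2 fold change was 0.20, against 0.01 over all genes. None was called, where 0.346% of all genes were, and the smallest edgeR adjusted p was 0.403, for Hspa5. At an unadjusted p under 0.05, 6 were higher, against 4.04% of all genes, and 0 were lower, against 2.94%. DESeq2 called 0 (1.12% of all genes), limma-voom 0 (0.278%) and edgeR without the low-count filter 0 (0.671%). In 12 genes, 6 of them chaperones, every MttpLKO library was above every control, against 7.27% of all genes, and in 0 every one was below, against 6.99%. These 12 include Hspa5 (log2 0.60 ± 0.19), Edem1 (0.37 ± 0.12), Pdia4 (0.42 ± 0.17), Dnajb11 (0.28 ± 0.12), Derl3 (0.51 ± 0.34) and Hsp90b1 (0.22 ± 0.15). Calr and Sdf2l1 gave -0.06 ± 0.15 and -0.01 ± 0.23. The median was 0.12 without MttpLKO replicate 3.

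Fabp1 loss on top of Mttp deletion was addressed by DKO against MttpLKO, which shares its libraries with both comparisons above. Any other difference between these lines cannot be told apart from Fabp1 loss here. Of the 59 genes called, 10 lie on chromosome 6 (16.95%), Fabp1 among them, against 4.98% of genes tested. Of the 35 genes, 26 were fitted higher and 9 lower, against 46.9% of all genes above 0, with a median log2 fold change of 0.16, against -0.02 over all genes. None was called by edgeR, where 0.4% of all genes were, and the smallest adjusted p was 0.119, for Derl3 (log2 1.52 ± 0.33). Limma-voom called 0 (0.38% of all genes) and edgeR without the low-count filter 2 (0.706%). DESeq2 called 4 higher and 1 lower, against 0.923% and 0.529% of all genes, or 1.45% in either direction. At an unadjusted p under 0.05, 10 were higher and 1 lower, against 4.65% and 4.45%. In 9 genes every DKO library was above every MttpLKO library (5.67% of all genes), and in 1, Fkbp14, below (5.83%). Chaperones had a median of 0.37 and sensors one of -0.06. Besides Derl3, Sdf2l1 and Calr, the non-overlapping genes included Pdia6 (0.53 ± 0.13), Pdia3 (0.49 ± 0.14) and Dnajb11 (0.41 ± 0.12), and Fkbp14 gave -0.78 ± 0.19 (edgeR adjusted p = 0.168). Hspa5 (0.19 ± 0.19) and Dnajb9 (-0.16 ± 0.24) overlapped. By edgeR, 1 gene was called without DKO replicate 2 (Derl3, against 0.246% of all genes). Without MttpLKO replicate 3, 1 was called (Sdf2l1, against 0.492% of all genes) and the median was 0.27.

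The promoter letters can be set beside the fold changes. The 9 genes with an exact ERSE were all fitted higher in DKO than in control, against 49.6% of all genes, with a median log2 fold change of 0.63, and 7 of them did not overlap, against 8.95% of all genes. With the ERSE-II genes added, 11 of 11 were fitted higher, from 0.04 for Herpud1 to 2.03 for Derl3, and Derl3 and Dnajb11 were called, against 0.332% of all genes. Of the 18 genes that had a window and neither element, 12 were fitted higher and 6 lower, with a median of 0.18. Without overlap, 6 of these 18 were higher (8.95% of all genes) and 1 lower (9.18%), and Fkbp14 was called (0.332%). Most of the 9 genes with an exact ERSE are chaperones, so element and role were not separated. Outside the 35, 20 further matched genes carried an exact ERSE and 9 of those were tested: 5 were fitted higher and 4 lower, with a median of 0.00089. The difference between these groups was not tested.

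Further genes of the pathway, taken from lists of known members, had smaller fitted differences. Of 18 further folding enzymes and lectin-cycle genes, 16 were fitted higher in DKO than in control with a median log2 fold change of 0.18, and the smallest p-values belonged to Erp29 (0.27) and Txndc5 (0.29). Of 16 further degradation genes, 13 were higher with a median of 0.09, and the smallest p-value belonged to Selenos (0.55, edgeR adjusted p = 0.0951). Of 19 genes of the translocon, signal peptidase and glycosylation, 18 were higher with a median of 0.21, and the smallest p-values belonged to Spcs2 (0.30) and Spcs1 (0.39). The COPII coat (13 genes) had a median of 0.11 and the other sensors and proteases (9 genes) one of 0.08. None of these 5 lists had a called gene in DKO against control by edgeR (0.332% of all genes) or limma-voom (0.237%), and DESeq2 called 1 in all (1.73% of all genes), among the further degradation genes. In that order, 2, 2, 6, 0 and 1 genes had an unadjusted p under 0.05 and were higher, against 5.91% of all genes.

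Of 15 genes of the PERK and ATF4 arm, 8 were fitted higher and 7 lower in DKO than in control, with a median log2 fold change of 0.08 and none called by edgeR, against 0.332% of all genes. At an unadjusted p under 0.05, 3 were higher (5.91% of all genes), DESeq2 called 1 (1.73%) and limma-voom 0 (0.237%). Atf4 itself gave -0.05 and Ddit3, which encodes CHOP, gave -0.09. Asns, the asparagine synthetase gene, was at 33.6, 15.3 and 20.2 CPM in DKO, 43.6, 26.6 and 21.4 CPM in MttpLKO and 4.73, 9.40 and 4.27 CPM in control. Both mutant genotypes lay wholly above control. Asns rose in MttpLKO over control (log2 2.31 ± 0.38, edgeR adjusted p = 0.0372) and gave 1.91 ± 0.38 in DKO over control (edgeR adjusted p = 0.0868). In MttpLKO over control, Atf4 gave -0.04 and Ddit3 0.29. Of the 15 genes there, 12 were fitted higher and 3 lower, with a median of 0.22, and Asns alone was called (0.346% of all genes). The MttpLKO call held in 11 of 17 alternative settings and was lost without control replicate 1 (edgeR adjusted p = 0.143), control replicate 3 (0.176), MttpLKO replicate 1 (0.0804), MttpLKO replicate 2 (0.0799) or DKO replicate 2 (0.058), and in the fit of the 6 libraries compared (0.0572).

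Secretory cells other than hepatocytes also make much of this machinery, so their markers were read in the same libraries. The 10 B and plasma cell markers summed to 54.2, 25.1 and 33.2 CPM in DKO, 29.5, 50.8 and 645 CPM in MttpLKO and 28.9, 30.7 and 25.5 CPM in control. The plasma cell receptor gene Tnfrsf17 had 4 counts over all 9 libraries and was at 0 in every DKO library and in replicates 1 and 2 of both other genotypes. Derl3 was at 6.60 CPM in MttpLKO replicate 3, where the B and plasma cell sum was highest. In DKO, Derl3 was at 24.9, 7.66 and 20.9 CPM, the same order among the 3 pools as that sum. The part of these markers in the Derl3 values was not tested. Pancreatic acinar markers, 8 genes, summed to 16.5 to 26.1 CPM in DKO, 17.4 to 22.8 CPM in MttpLKO and 25.0 to 30.8 CPM in control, with Cpa1 and Amy2a5 at 0 throughout. Nearly all of each sum was Cela1, at 16.3, 25.8 and 17.6 CPM in DKO, and it alone of the 8 passed the low-count filter.

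The 8 hepatocyte markers summed to 64560, 82610 and 95950 CPM in DKO, 94720, 98790 and 105100 CPM in MttpLKO and 100500, 101200 and 88830 CPM in control. DKO replicate 1 had the lowest hepatocyte sum, of which Alb was 34960 CPM, and the highest chaperone median, 0.83. DKO replicate 3, with a hepatocyte sum inside the control range, had a chaperone median of 0.77. By median log2 ratio to control, the measure used for the chaperones, the hepatocyte markers gave -0.19, -0.23 and 0.19 in DKO. By that measure DKO replicate 2 was the lowest DKO library in both lists. The 8 stellate cell and fibroblast markers summed to 226 to 283 CPM in DKO, 227 to 421 CPM in MttpLKO and 199 to 218 CPM in control, and the 6 bile duct markers to 76.1 to 103 CPM, 84.8 to 142 CPM and 63.9 to 71.6 CPM in that order. Both sums were above control in every mutant library, but most single markers overlapped. Every DKO library was above every control in 3 of the 8 stellate and 2 of the 6 bile duct markers (8.95% of all genes). Every MttpLKO library was above every control in 2 and 3 of them (7.27% of all genes). The bile duct marker Cldn7 was below every control in DKO (9.18% of all genes). Among the 8 hepatocyte markers 2, Ttr and Serpina1c, were below every control in DKO. The same 2 were below every control in MttpLKO (6.99% of all genes). Macrophage markers (8 genes) ran from 78.6 to 181 CPM in DKO, 46.5 to 147 CPM in MttpLKO and 116 to 160 CPM in control, and cycling-cell markers (8 genes) from 18.8 to 25.5, 15.8 to 40.1 and 13.9 to 20.5 CPM. The plot of chaperones beside marker lists gives the median log2 ratio to control in each library. The cycling-cell medians were 0.4, 0.13 and 0.56 in DKO, each above every control (0.11, -0.06 and -0.1). In MttpLKO they were -0.06, -0.19 and 1.03. The medians of the B and plasma cell, macrophage, stellate, bile duct and hepatocyte lists overlapped between DKO and control. The part of these markers in the chaperone values was not tested. A pool of 3 mice averages over its animals, so differences among mice of one genotype were not seen.

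**Figure D5:**
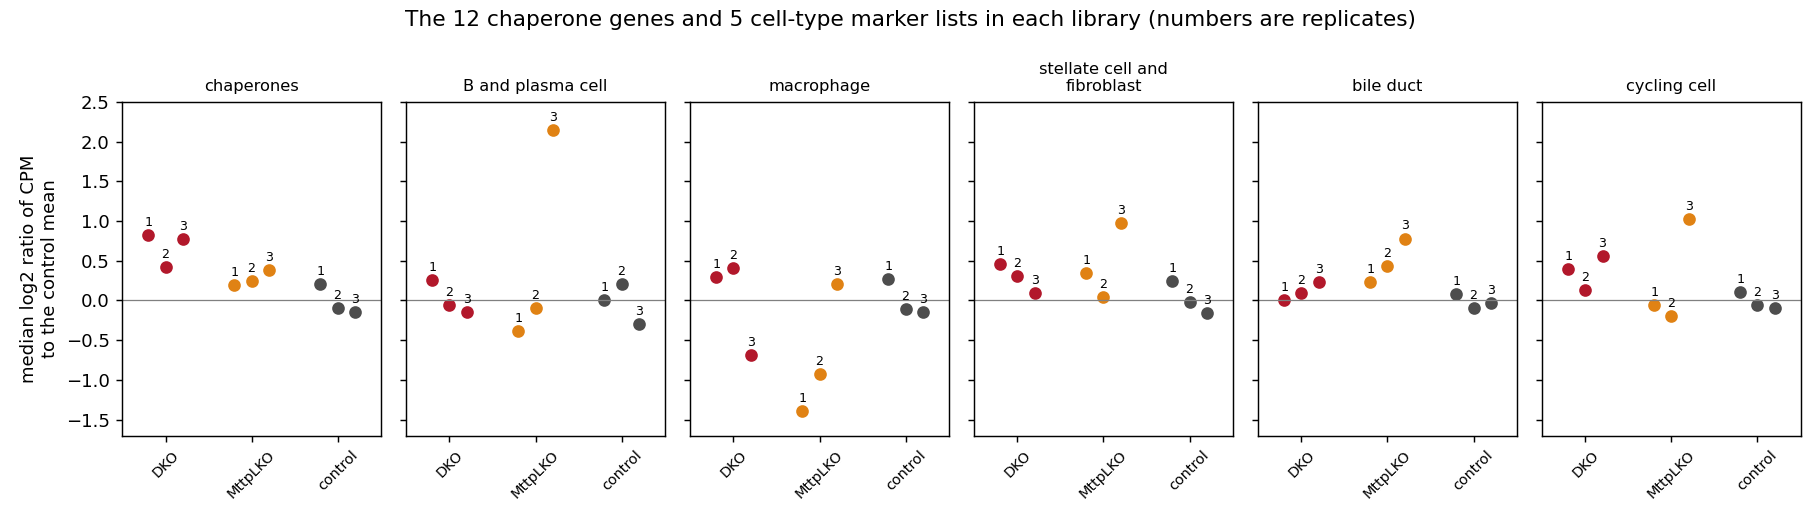
Median log2 ratio of CPM to the control mean, per library, of the 12 chaperones and of the marker lists of 5 other cell types or states, with DKO, MttpLKO and control from left to right and replicate numbers above the points. The chaperone points of DKO (0.83, 0.42 and 0.77) are above all other libraries, and the highest B and plasma cell point, 2.15, belongs to MttpLKO replicate 3.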

How the data were processed

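Liver RNA, selected with oligo(dT) per the labels' protocols, was sequenced as 9 pooled libraries. The authors deposited whole-number counts per gene, together with CPM and RPKM values; the largest difference between the deposited CPM or RPKM and values recomputed from the counts was 5.1e-11. Per the submitters' processing notes, the tools were STAR 2.0.4b, featureCounts 1.4.5 and Subread, without their roles. The sources used here do not give genome build, annotation, strand setting or the treatment of multiply matching reads, so overlapping and antisense genes are uncertain. Coordinates of genes are as the deposited tables give them; 26 of the 35 genes start at the same base in GENCODE M21 (GRCm38).

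Symbols were matched by Ensembl identifier (40254 of 41388). Counts were filtered with filterByExpr (minimum count 10), scaled by TMM and fitted with edgeR 4.0.16 (R 4.3.3; glmQLFit, glmQLFTest) as 3 genotype means over 9 libraries (6 residual degrees of freedom), with Benjamini-Hochberg adjustment over 14741 genes and a threshold of 0.05. DESeq2 1.42.0, limma-voom (limma 3.58.1), other scalings and filters, 6-library fits, a replicate block and each library left out were alternatives. The fit was tested on simulated data with 200 changed genes. Levels per length are RPKM. The biological coefficient of variation was 18.3%. Replicates differed by more than sampling noise. The labels give 3 pools of 3 mice per genotype, and p-values measure the spread between pools, not mice.

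The genes and lists were chosen with earlier results of these data known. Values in every library are given for genes called in any comparison, the 3 with the smallest p in each pairwise comparison and a set of 13 across the roles, 16 in all; Creld2, Plekha8 and summary values of other genes were chosen after their values were seen. Cell type markers were read as summed CPM. Promoter sequences came from RefSeq (GRCm38.p6).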

Additional observations from a re-analysis of the deposited data

How the results depend on the processing

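The number of the 35 genes called in DKO against control was 3 and depended on the settings. It was 12 with no low-count filter, 11 by DESeq2, 0 with a minimum count of 50, 0 by limma-voom, 0 when only the 6 libraries compared were fitted, and 0 to 5 with single libraries left out; RLE and upper quartile scaling gave 3 and 2. Over the settings other than DESeq2, limma-voom and no filter, 0.101% to 0.674% of all genes were called. With the replicate block it was 1, Derl3. Same-numbered libraries of different genotypes correlated between -0.244 and 0.072, and a library matched its own number best in 4 of 18 cases, so the numbers were not taken to pair the pools. In DKO against MttpLKO the count was 0, against 2 with no low-count filter, 5 by DESeq2 and 0 to 1 with single libraries left out. With single libraries left out, 0.147% to 0.492% of all genes were called there. In MttpLKO against control the count was 0 under every alternative run, where 0.0938% to 1.12% of all genes were called. For any difference the count was 1, against 10 with no low-count filter, 12 by DESeq2 and 0 by limma-voom. It was 0 to 4 with single libraries left out, against 0.315% to 0.916% of all genes. The cause of these shifts was not tested. The median log2 fold change in DKO against control ran from 0.29 to 0.50 with single libraries left out, highest without control replicate 1.

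Directions of genes near 0 turned under single omissions. With single libraries left out, the log2 fold change in DKO against control ran from -0.0065 to 0.53 for Dnajb9, -0.15 to 0.13 for Herpud1, -0.30 to 0.19 for Eif2ak3 and -0.18 to 0.34 for Xbp1, which was also -0.0048 with upper quartile scaling. In MttpLKO against control it ran from -0.14 to 0.035 for Calr, -0.30 to 0.16 for Sdf2l1, -0.28 to 0.032 for Ern1, -0.40 to 0.12 for Xbp1 and -0.26 to 0.0058 for Ppp1r15a. In DKO against MttpLKO it ran from -0.34 to 0.025 for Dnajb9, -0.23 to 0.053 for Ern1 and -0.18 to 0.10 for Atf6. None of these values was called. Of the genes called, Fkbp14 had 71 to 225 counts per library and Derl3 107 to 620; the effect of depth was not tested.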
